A study of Mus musculus with 6 samples.

Results

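Fatty acid and triglyceride synthesis was followed through 10 genes of the pathway, Acly, Me1, Acaca, Fasn, Scd1, Elovl6, Srebf1, Thrsp, Gpam and Dgat2, on every array probe that carries one of these symbols. They are 10 of the 19057 genes named on the array, with 14 probes in all, and the rule that picks their probes uses the gene symbol alone. RNA of primary myoblasts, the muscle precursor cells that grow out of satellite cells, was hybridised to Illumina Mouse WG-6 bead arrays, with 3 arrays of Rev-/- cells and 3 of WT cells. Rev-/- mice lack Rev-erbα (gene Nr1d1) in all tissues and came from heterozygote breeding. The labels give C57BL/6 males aged 6 weeks for both groups, the methods give a younger age for myoblast isolation, and both groups were grown in F-10 medium with 20% serum plus bFGF at 5 ng/ml. The samples are described as independent, and nothing used here ties each to an animal, so that p-values measure only the spread between these arrays.

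New fatty acids are built in the cytosol from citrate. ATP citrate lyase cuts citrate to acetyl-CoA, acetyl-CoA carboxylase makes malonyl-CoA of it, and fatty acid synthase joins these units with NADPH that malic enzyme helps to supply. Elongases and desaturases then finish the chains, and acyltransferases load them onto glycerol to give triglyceride, the storage fat of adipocytes, liver and, in droplets, muscle. Rev-erbα is a repressor of the circadian clock that binds the DNA core site AGGTCA, and in mouse liver it is known for holding down genes of lipid synthesis.

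The core site is shown first, because the comparison asks what the loss of this repressor did to the genes. The 250 bases before each RefSeq start (build GRCm38.p6) were searched on both strands in 12 windows of 8 genes, with none for Dgat2 and Scd1. AGGTCA occurred in 3 of the 12 windows, and in 14.0% of all 32851 windows of that length. The 3 windows are printed 5′ to 3′ on the gene's strand with that site in capitals. In Acly (chr11:100528001-100528250, minus strand) it lay 40 to 35 bases before the start, in Elovl6 (chr3:129532136-129532385, plus strand) 193 to 188 bases before it on the other strand, and in Gpam (chr19:55099478-55099727, minus strand) 196 to 191 bases before the second of its 2 starts.
Acly: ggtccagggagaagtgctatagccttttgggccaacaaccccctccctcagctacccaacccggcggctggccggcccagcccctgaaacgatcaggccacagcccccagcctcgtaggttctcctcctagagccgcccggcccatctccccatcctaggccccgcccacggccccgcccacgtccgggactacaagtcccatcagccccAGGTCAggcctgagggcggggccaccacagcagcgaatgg
Elovl6: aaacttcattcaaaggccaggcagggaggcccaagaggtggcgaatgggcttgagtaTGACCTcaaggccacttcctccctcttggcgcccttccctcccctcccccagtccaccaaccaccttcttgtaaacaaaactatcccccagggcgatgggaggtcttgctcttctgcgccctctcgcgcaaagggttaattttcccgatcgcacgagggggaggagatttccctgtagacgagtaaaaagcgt
Gpam: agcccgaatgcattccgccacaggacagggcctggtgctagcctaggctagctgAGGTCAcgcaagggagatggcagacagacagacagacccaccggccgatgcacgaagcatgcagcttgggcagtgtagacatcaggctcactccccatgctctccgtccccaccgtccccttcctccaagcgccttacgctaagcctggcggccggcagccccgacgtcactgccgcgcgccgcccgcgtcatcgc

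The longer Rev-erb element, ANNT followed directly by AGGTCA, was in 0 of the 12 windows and in 0.609% of all. The E-box CACGTG, the element of clock activators and of USF and ChREBP, was also in 0 (6.02% of all), as was TCACCCCAC, a sterol response element read by SREBP proteins (0.496% of all). The inverted CCAAT box ATTGG, bound by NF-Y, was in 6 windows of Fasn, Srebf1, Thrsp, Me1 and Gpam and in 33.8% of all. A match in these letters is a description of the window and not a bound site.

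Values are log2 intensities after quantile normalization of the deposited intensities, which had array medians of 98.4 to 107. Between 21301 and 23051 of the 45281 probes lay above background on each array, where background is the 95th percentile of the dim probes' own spread. The targeted gene did not follow the labels. Nr1d1 was at 7.01, 6.51 and 7.14 on arrays Rev-/- 1, 2 and 3, and at 6.59, 6.54 and 7.22 on arrays WT 1, 2 and 3, and lay above background only on Rev-/- 1, Rev-/- 3 and WT 3. It was not examined here if its probe lies inside the deletion, so directions below are those between libraries as labelled. Arntl (Bmal1), a clock gene that Rev-erbα is known to repress, was at 7.30, 7.38 and 7.27 on the Rev-/- arrays and 7.64, 7.52 and 7.28 on the WT arrays, a log2 fold change of −0.16 (SE 0.097) that did not pass the test. Array Rev-/- 1 was unlike the others. It correlated with them at a mean of 0.983, against 0.991 to 0.992 for the rest, and had summed intensities of 17670 for 8 neutrophil markers and 16015 for 6 bone markers, against 938 to 3323 and 927 to 3112 on the other 5 arrays. The probe of Xist, which silences the inactive X, that was brightest over all arrays was at 6.62 there and at 9.73 or more on the other 5, although all 6 are labelled male. Of 10 myoblast markers, 6 were above background on the 3 arrays required for testing, whereas Pax7, Pax3, Myf5 and Met were not. The brightest probe of Myod1 was above it on all 6 arrays, at 7.84 to 8.08. All 10 measured genes of mature muscle passed that filter. Their summed intensity was 119298 to 131290 per array, against 8146 to 10347 for the 6 myoblast markers. What part of the RNA came from mature muscle was not tested. The red cell genes Hba-a1, at 14.22 to 14.60, and Alas2, at 9.06 to 10.90, also passed the filter.

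Fasn and Acaca were at background. Fasn, the fatty acid synthase itself, was measured at 6.59, 6.56 and 6.69 on the Rev-/- arrays 1, 2 and 3, and at 6.61, 6.65 and 6.69 on the WT arrays 1, 2 and 3. Acaca, the cytosolic acetyl-CoA carboxylase, was measured at 6.63, 6.69 and 6.60 on the Rev-/- arrays, and at 6.59, 6.59 and 6.58 on the WT arrays. Each has 1 probe on the array and it was not well above background on any of the 6, so that neither gene was tested and no fold is given. Acacb, the acetyl-CoA carboxylase of the mitochondrial surface, named here after its values were seen, was above background on all 6 arrays, from 9.61 to 10.34 on the Rev-/- arrays and from 9.90 to 10.41 on the WT arrays. The other 8 genes had 1 probe each above background on at least 3 arrays. Those of Scd1, Acly, Elovl6, Thrsp, Me1, Dgat2 and Gpam were above it on all 6 arrays and that of Srebf1 on 3, namely Rev-/- 1, WT 1 and WT 2. The other probes of Elovl6, Thrsp and Gpam lay below the limit on all 6 arrays, and the other probe of Srebf1 passed it only on Rev-/- 3. This Srebf1 probe was at 6.54, 6.56 and 6.77 on the Rev-/- arrays, and at 6.51, 6.51 and 6.53 on the WT arrays. It was higher in Rev-/-, unlike the Srebf1 probe described below, but it was too dim to be tested.

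**Figure D1:**
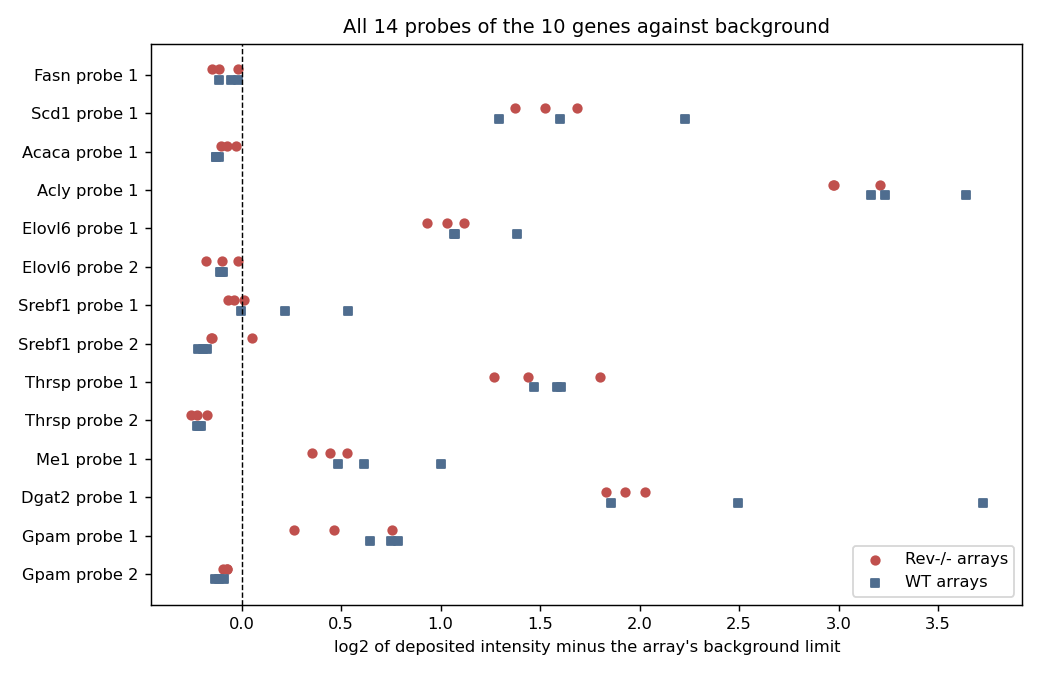
Distance of each of the 14 probes from background, as log2 of the deposited intensity minus the limit of the same array (x axis), with Rev-/- arrays as red circles and WT arrays as blue squares. The dashed line is the limit. Of the 14 probes, 5 lie left of it on every array, those of Fasn and Acaca among them, and the rightmost point of Dgat2 is array WT 1.

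None of the 8 measured genes differed between Rev-/- and WT arrays beyond the spread of the arrays. With limma and Benjamini-Hochberg adjustment over 18817 probes, 0 of the 8 were called (adjusted p up to 0.05 together with 1.5-fold or more), against a background of 0% of all probes called, and the smallest adjusted p of any probe was 0.997. Before adjustment, 0 of the 8 reached a p of 0.05, against 3.11% of all probes (1.3% higher and 1.81% lower in Rev-/-), although Srebf1 did so under some other settings. In 0 of the 8 did the groups fail to overlap, against 8.57% of all probes (3.75% higher and 4.82% lower in Rev-/-). The log2 fold change, Rev-/- minus WT, was negative in 7 of the 8 with a median of −0.091, beside 6253 of all 12004 genes and a median of −0.0046. On this scale the 95% interval lay within 1.5-fold either way for 7 of the 8, all but Dgat2, but with normexp background correction Srebf1 itself was past 1.5-fold, at −0.64 (SE 0.24), and Me1 and Gpam were at −0.32 (SE 0.17) and −0.29 (SE 0.24). The exact permutation test of 3 arrays against 3 cannot give a p below 0.1.

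**Figure D2:**
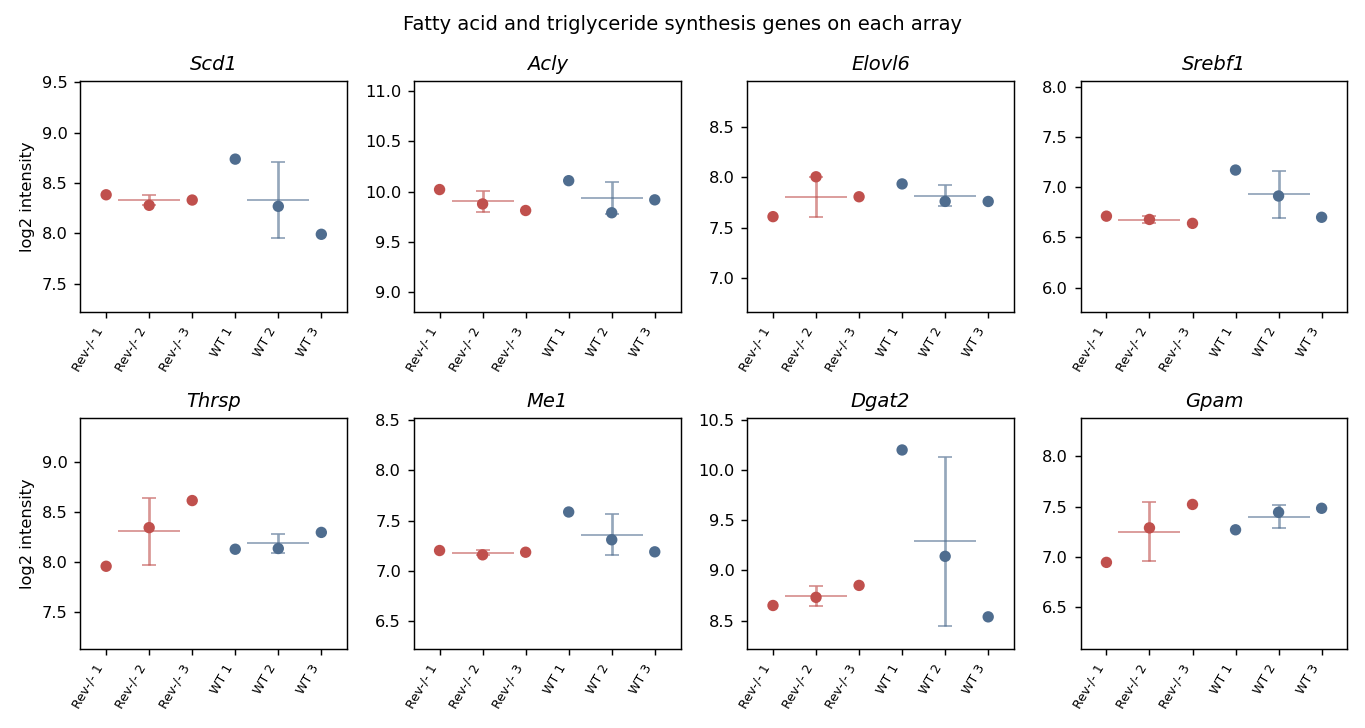
Log2 intensity of the 8 genes above background on each array (y axis), with 3 Rev-/- arrays in red on the left and 3 WT arrays in blue on the right of each panel, bars showing the mean and SD (n = 3 each). All panels span the same number of log2 units, and the groups overlap in all 8. WT 1 is the highest point for Scd1, Acly, Srebf1, Me1 and Dgat2.

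Genes that supply the substrates differed little. Acly, ATP citrate lyase, was at 10.02, 9.88 and 9.81 on the Rev-/- arrays 1, 2 and 3, and at 10.11, 9.79 and 9.92 on the WT arrays 1, 2 and 3. The groups overlapped, with means of 9.90 ± 0.11 in Rev-/- and 9.94 ± 0.16 in WT (SD, n = 3 each) and a log2 fold change of −0.036 (SE 0.098, 95% interval −0.27 to 0.19). Among the windows shown above, that of Acly carries the core site nearest the start. Me1, the cytosolic malic enzyme, was at 7.20, 7.16 and 7.19 on the Rev-/- arrays, and at 7.59, 7.31 and 7.19 on the WT arrays. The 3 Rev-/- values lay close together, WT 3 fell among them, and WT 1 was the high point. The log2 fold change of Me1 was −0.18 (SE 0.10, 95% interval −0.42 to 0.062), and the exact permutation p was 0.2, 2-sided.

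Desaturation and elongation genes had nearly equal means. Scd1, the desaturase that makes oleate from stearate, was at 8.38, 8.28 and 8.33 on the Rev-/- arrays 1, 2 and 3, and at 8.74, 8.27 and 7.99 on the WT arrays 1, 2 and 3. Both means were 8.33, with an SD of 0.052 in Rev-/- and 0.38 in WT (n = 3 each), so that the WT arrays enclosed the Rev-/- arrays on either side. The log2 fold change of Scd1 was −0.0013 (SE 0.17, 95% interval −0.41 to 0.40). Elovl6, which lengthens palmitate to stearate, was at 7.61, 8.01 and 7.81 on the Rev-/- arrays, and at 7.94, 7.76 and 7.76 on the WT arrays. Here the Rev-/- arrays held both the highest and the lowest value, and the log2 fold change was −0.011 (SE 0.11, 95% interval −0.27 to 0.25). The Elovl6 window shown above also carries a core site.

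The regulators gave the smallest p and the only positive difference. Srebf1, the transcription factor SREBP-1 that drives the lipogenic enzymes, was at 6.71, 6.68 and 6.64 on the Rev-/- arrays 1, 2 and 3, and at 7.17, 6.91 and 6.70 on the WT arrays 1, 2 and 3. WT 1 and WT 2 were higher than every Rev-/- array, WT 3 fell among the Rev-/- values, and 3 of the 6 arrays were at background. The log2 fold change was −0.25 (SE 0.11, 95% interval −0.52 to 0.020), with an adjusted p of 0.997 from limma and an exact permutation p of 0.2, 2-sided. Thrsp (Spot 14), a small nuclear protein that promotes lipogenesis, was at 7.96, 8.34 and 8.61 on the Rev-/- arrays, and at 8.13, 8.14 and 8.30 on the WT arrays. The Rev-/- arrays again held the lowest and the highest value, and the log2 fold change was 0.12 (SE 0.16, 95% interval −0.25 to 0.49). Without array Rev-/- 1, which stood apart, it was 0.29 (SE 0.10), with an adjusted p of 0.999 from limma (0.024 before adjustment).

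At the ends of triglyceride assembly, Dgat2 varied more between single arrays than any other of the 8 genes. Gpam, the mitochondrial acyltransferase that puts the first acyl chain on glycerol phosphate, was at 6.95, 7.29 and 7.52 on the Rev-/- arrays 1, 2 and 3, and at 7.27, 7.44 and 7.48 on the WT arrays 1, 2 and 3. Rev-/- 1 was low and the other 5 arrays lay close together, with a log2 fold change of −0.15 (SE 0.14, 95% interval −0.49 to 0.19) and of 0.0063 (SE 0.10) without that array. Dgat2, the acyltransferase that adds the last chain, was at 8.65, 8.73 and 8.85 on the Rev-/- arrays, and at 10.20, 9.14 and 8.54 on the WT arrays. The WT arrays thus held both the highest and the lowest value, which differed 3.16-fold, whereas the SD was 0.10 in Rev-/- and 0.84 in WT (n = 3 each). The log2 fold change of Dgat2 was −0.55 (SE 0.37, 95% interval −1.41 to 0.32), the exact permutation p was 0.4, 2-sided, and a 1.5-fold difference in the negative direction lies inside that interval.

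**Figure D3:**
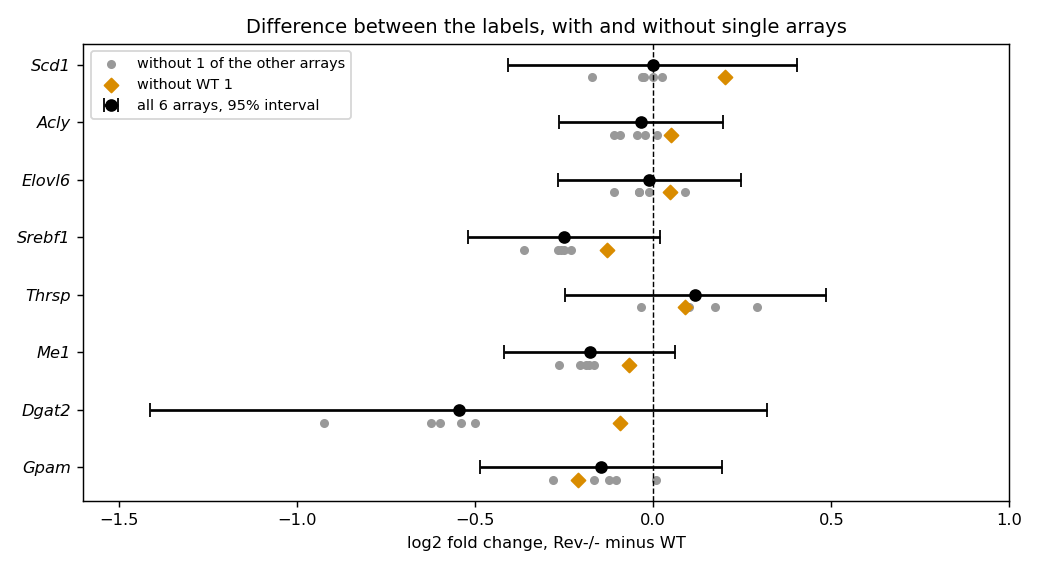
Log2 fold change of the 8 genes, Rev-/- minus WT (x axis), with black points and 95% intervals from all 6 arrays, grey points with 1 array left out and orange diamonds without WT 1. All 8 intervals include 0. Without WT 1 the value of Dgat2 is −0.094 and that of Scd1 0.20.

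Several of the differences depended on array WT 1. It was the highest of the 6 arrays for 5 of the 8 genes, Scd1, Acly, Srebf1, Me1 and Dgat2, against 16.5% of all 12004 genes. The median deviation of the 8 genes from their own means was −0.15, −0.048 and −0.046 on the Rev-/- arrays 1, 2 and 3, and 0.25, −0.0074 and −0.068 on the WT arrays 1, 2 and 3, so that WT 1 was high and the other 5 arrays lay below 0. Their summed intensity was 2595, 2661 and 2728 on the Rev-/- arrays, and 3721, 2710 and 2555 on the WT arrays. Without WT 1, 4 of the 8 genes were lower in Rev-/- and the median log2 fold change was −0.010. In that setting Dgat2 was at −0.094 (SE 0.18), Me1 at −0.067 (SE 0.070) and Srebf1 at −0.13 (SE 0.085), none past the test, and Acly, Elovl6 and Scd1 turned positive at 0.049, 0.047 and 0.20, whereas Gpam was at −0.21. Without WT 3 the same 3 genes moved the other way, Dgat2 to −0.92 (SE 0.29), Me1 to −0.26 (SE 0.097) and Srebf1 to −0.36 (SE 0.095), with an adjusted p of 0.998 each from limma (0.018, 0.034 and 0.0083 before adjustment). The sign of Thrsp depended on scaling, at −0.046 with array medians aligned and −0.092 with no normalization.

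Other genes of the pathway were described with the same fit. Of 24 further genes of fatty acid supply, elongation and desaturation, 19 were above background, 0 were called, 0 reached a p of 0.05 before adjustment, and the median log2 fold change was −0.049. The members of that list with the smallest p were Fads1, the delta-5 desaturase, at −0.14 (SE 0.077), and Scd3, a relative of Scd1, at 0.11 (SE 0.062). Of 16 further genes of triglyceride assembly 15 had a probe with 1 symbol and 12 were above background, with a median of −0.050. In that list 0 were called and 1 was past an unadjusted p of 0.05 in the positive direction, against 1.3% of all probes. This was Lpin3, a phosphatidate phosphatase, at 6.84, 6.90 and 6.91 on the Rev-/- arrays 1, 2 and 3 and 6.72, 6.68 and 6.80 on the WT arrays 1, 2 and 3 (log2 fold change 0.15, SE 0.060, adjusted p 0.997 from limma). Agpat2, which adds the second acyl chain and is abundant in fat, was at 7.46, 7.20 and 7.30 on the Rev-/- arrays and 8.62, 7.96 and 7.23 on the WT arrays, a log2 fold change of −0.62 (SE 0.31). It followed the pattern of Dgat2, high on WT 1, between on WT 2 and low on WT 3, and its other probe did so too, at 7.26, 6.94 and 7.05 on the Rev-/- arrays and 7.94, 7.52 and 7.10 on the WT arrays.

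Regulators and NADPH genes gave no called gene. Of 19 regulators 17 had a probe with 1 symbol and 16 were above background. Of the 16, 0 reached an unadjusted p of 0.05, and the median log2 fold change was −0.024. Nfyb, a subunit of the CCAAT-box factor NF-Y, was at 0.16 (SE 0.076), and Mbtps2, the protease that releases SREBP from the membrane, at −0.11 (SE 0.056). Of 9 genes of NADPH supply 8 had such a probe and 6 were above background, with a median of 0.079 and 0 genes past an unadjusted p of 0.05. Tkt, transketolase, was at 0.24 (SE 0.16), and Idh1, the cytosolic isocitrate dehydrogenase, at −0.14 (SE 0.097).

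The list of triglyceride breakdown had the most negative median of the pathway lists, −0.23 over 7 genes, with 0 called and 2 past an unadjusted p of 0.05 in the negative direction, against 1.81% of all probes. Mgll, monoglyceride lipase, was at 9.26, 9.10 and 9.33 on the Rev-/- arrays 1, 2 and 3, and at 9.47, 9.50 and 9.42 on the WT arrays 1, 2 and 3, with a log2 fold change of −0.23 (SE 0.073) and an adjusted p of 0.997 from limma. Its 2 other probes were at −0.26 and 0.056. Abhd5, the activator of adipose triglyceride lipase, was at 8.20, 8.08 and 8.17 on the Rev-/- arrays and 8.38, 8.25 and 8.29 on the WT arrays, a log2 fold change of −0.16 (SE 0.066) with the same adjusted p. The groups did not overlap for Mgll, Abhd5 and Pnpla3, 3 of the 7 genes, against 4.82% of all probes in that direction, and 5 of the 7 were highest on WT 1. For Pnpla3 the gap was narrow, between 7.20 on Rev-/- 3 and 7.21 on WT 3.

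Most markers of adipocytes were also highest on array WT 1. Of 15 markers 13 had a probe with 1 symbol, and of these Fabp4 and Retn were not above background. The other 11 were, and 7 of the 11 were highest on WT 1. The summed intensity of the 11 was 7581, 9303 and 10863 on the Rev-/- arrays 1, 2 and 3, and 14654, 11874 and 8088 on the WT arrays 1, 2 and 3. The sum was highest on WT 1 and lowest on Rev-/- 1, but Car3, the brightest marker at 11.96 to 12.97, weighs most in it. The median deviation of the 11 markers was −0.13, −0.28 and 0.073 on the Rev-/- arrays. On the WT arrays it was 0.34, 0.14 and −0.33. By that measure WT 3 was lowest, as it was for Dgat2 and Scd1, whereas Elovl6, Thrsp and Gpam were lowest on Rev-/- 1. Adipoq, the fat hormone adiponectin, was at 9.61, 8.53 and 10.22 on the Rev-/- arrays, and at 10.71, 9.32 and 9.10 on the WT arrays. Lep, leptin, was at 7.36, 7.27 and 7.63 on the Rev-/- arrays, and at 9.63, 7.98 and 7.15 on the WT arrays. Some of the list, such as Car3 and Pparg, are also made by muscle or other cells. Of 6 hepatocyte markers 3 were above background, whereas Alb, Fgb and Tat were not. The summed intensity of the 3 was 1807 on Rev-/- 1, 622 on WT 1 and 357 to 392 on the other arrays. The part of adipocyte or liver RNA in the level of the synthesis genes was not tested. In bulk RNA fewer cells of a type and less RNA per cell cannot be told apart.

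**Figure D4:**
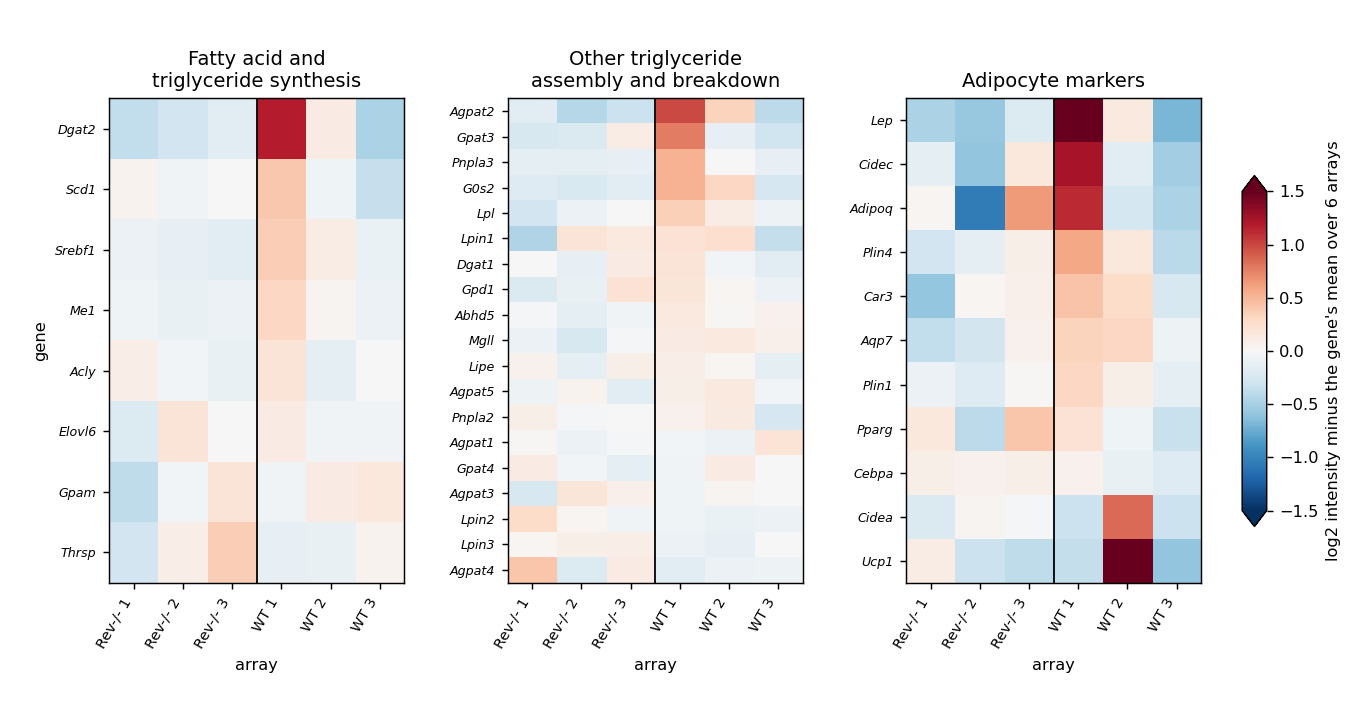
Deviation of each gene from its own mean over the 6 arrays in log2 intensity (colour, with values past 1.5 drawn in the end colour), for the 8 synthesis genes, 19 genes of triglyceride assembly and breakdown and 11 adipocyte markers, with Rev-/- arrays left of the black line and WT arrays right of it. Column WT 1 is dark red for Dgat2, Agpat2, Lep, Cidec and Adipoq, and Ucp1 and Cidea are highest in column WT 2.

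The genes whose pattern over the 6 arrays was most like the median of the 8 synthesis genes were sought among 1820 genes with a range of at least 0.5 log2 units. They were Aatk (Pearson r = 0.99), Fbxo3 (0.98), 2610016A17Rik (0.97), Pnpla3 (0.97) and Orm1 (0.95), as a description over 6 arrays that the genes share. All 5 were highest on WT 1, which follows from the choice, since the median profile they were matched to is highest there. Pnpla3, a lipase of lipid droplets that SREBP-1 is known to regulate in liver, was at 7.18, 7.19 and 7.20 on the Rev-/- arrays 1, 2 and 3, and at 7.85, 7.32 and 7.21 on the WT arrays 1, 2 and 3. Orm1, a plasma protein of liver and fat, was at 8.09 on WT 1 and from 6.78 to 7.08 on the other 5 arrays.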

How the data were processed

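Total RNA of 3 Rev-/- and 3 WT primary myoblast samples was measured on Illumina Mouse WG-6 V2.0 arrays. The authors' methods describe BeadStudio extraction, background subtraction and quantile normalization with lumi and testing with limma, and GenomeStudio, lumi and limma are the tools in the submitters' processing notes, without versions. The deposited values were linear intensities, lowest at 76.2 to 83.7 per array. The same quantile differed up to 1.49-fold between arrays, so the columns do not share 1 distribution. A second deposited table, with 12 columns of signals and detection p-values named by chip position, was not used because nothing pairs positions with samples.

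Quantile normalization and log2 were applied here (limma 3.58.1, R 4.3.3), with no further background step. The dim side of each array's log2 density, mirrored at its peak, gave a background whose 95th percentile was the limit. A probe was kept if 3 or more arrays passed it, which left 22322 probes, 18817 of them with 1 platform symbol (34885 probes had 1 symbol, 18 several and 10378 none), and the brightest kept probe stood for each of 12004 genes. Signal over background and 3 arrays per label limit the precision. The comparison was Rev-/- minus WT in limma (lmFit, eBayes, no block), Benjamini-Hochberg adjusted over the 18817 probes. Calls needed both an adjusted p up to 0.05 and 1.5-fold or more. The exact permutation test of single genes was 2-sided. The steps were tested on simulated data.

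The genes and lists were chosen with earlier results of these data known. Named were all 10 genes with every probe, Nr1d1 with Arntl, in each pathway list the 2 genes of smallest p where none was called, the 2 adipocyte markers of largest range, and the 5 genes most like the median profile. Xist, red cell genes and the marker lists of other cells are given as checks of the arrays. Alternatives were other normalizations, normexp with an offset of 16, other filters and thresholds, a block on replicate number, averaged probes, array weights, a robust prior with intensity trend, and each array left out. Upstream sequences came from RefSeq.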

Additional observations from a re-analysis of the deposited data

How the results depend on the processing

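Calls with limma stayed at 0 under every alternative of normalization, background, filter, weights, variance prior, block, probe choice and left-out array. In the main setting 585 of 18817 probes lay at an unadjusted p of at most 0.05. That count was 2997 with array medians aligned and 3643 with no further normalization. The smallest adjusted p of any probe from limma was 0.19 and 0.16 in these settings, and 0.099 without array Rev-/- 2. Dgat2 and Me1 kept their negative sign in all 16 alternatives run, and Srebf1 in the 15 run, since the filter for all 6 arrays removed it. Scd1 turned positive with cyclic loess (0.0056), normexp (0.0096) and array weights (0.020), Elovl6 with array weights (0.025), and Thrsp turned negative with array medians aligned (−0.046) and with no further normalization (−0.092). In those last 2 settings the median of all genes was −0.10 and −0.15, against −0.0046, and all 8 synthesis genes were then lower in Rev-/-. With 1 array left out the log2 fold change ran from −0.17 to 0.20 for Scd1, −0.11 to 0.049 for Acly, −0.11 to 0.088 for Elovl6, −0.36 to −0.13 for Srebf1, −0.035 to 0.29 for Thrsp, −0.26 to −0.067 for Me1, −0.92 to −0.094 for Dgat2 and −0.28 to 0.0063 for Gpam. Srebf1, a probe close to background, reached an unadjusted p of 0.024 with normexp (−0.64, SE 0.24) and 0.040 with the trend and robust prior, with adjusted p-values of 0.998 from limma. The cause of these changes was not tested.

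With the replicate number as a block, 0 probes were called and Srebf1 was at −0.25 (SE 0.094, adjusted p 0.997 from limma, 0.042 before adjustment). In this balanced design the block cannot change a fold change, only its error. The deviations of same-numbered arrays correlated at −0.16, 0.12 and 0.052 over 12004 genes. The highest correlation with an array of another number was 0.15, 0.12 and 0.11. Whether same-numbered arrays share more than a number was not tested. Signal over background limits what can be read for Fasn, Acaca and Srebf1.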

Other observations

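Ucp1 and Cidea, genes of brown and beige fat, were chosen after their values were seen. They differed from most other adipocyte markers in the array on which they were high. Pparg and Cebpa were also not highest on WT 1, with Pparg highest on Rev-/- 3 at 8.28 and Cebpa on Rev-/- 1 at 6.90. Ucp1, the uncoupling protein of heat-producing fat, was at 7.30, 6.86 and 6.80 on the Rev-/- arrays 1, 2 and 3, and at 6.82, 8.72 and 6.60 on the WT arrays 1, 2 and 3. Cidea, a lipid droplet protein, was at 8.08, 8.34 and 8.27 on the Rev-/- arrays, and at 7.97, 9.15 and 7.98 on the WT arrays. Both were highest on WT 2, whereas Lep, Adipoq and Dgat2 were highest on WT 1. The log2 fold change, Rev-/- minus WT, was −0.39 for Ucp1 and −0.14 for Cidea, and neither was called with limma.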
